A study of Homo sapiens with 6 samples.

Results

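The genes described here encode the machinery of receptor-driven and mitochondrial apoptosis: TNF family ligands and their receptors, the adaptors and kinases that assemble on those receptors, caspases, inhibitor of apoptosis proteins (IAPs), and the factors that carry the signal from mitochondria to the nucleus. Members were taken from a list of 36 gene symbols, and every probe set that the array platform's annotation assigns to one of them was included. Of these genes 31 had a probe set of their own, among 11963 genes named on the array, with 72 own probe sets and 2 further probe sets that name TNFRSF10C together with another gene. No probe set was named for TNFRSF10A, TRAF2, RIPK1, BIRC3 and CASP14, which were not analysed here. Expression was measured on 1-colour oligonucleotide arrays, 1 per sample, in 3 samples of WZR6 cells and 3 samples of parental NCI-H1975 cells. NCI-H1975 cells come from a human lung adenocarcinoma driven by mutant EGFR. WZR6 is 1 clone derived from it by growth in rising concentrations of the EGFR kinase inhibitor WZ4002, and the parental cells are the drug-sensitive line from which it came. Both were harvested while growing exponentially in RPMI with 5% serum, and the sources used here do not give whether WZ4002 was then in the medium. The labels do not say that the samples came from separate cultures, so p-values measure only the spread between these samples, which may be technical. Because WZR6 is 1 clone, differences tied to resistance and differences particular to the clone cannot be told apart.

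In the extrinsic pathway, a ligand such as TRAIL or FAS ligand gathers its receptor, the adaptor FADD and the initiator caspases 8 and 10 into a complex in which CFLAR, a caspase-like protein without protease activity, restrains activation. In the intrinsic pathway, cytochrome c released from mitochondria joins APAF1 and caspase 9 in the apoptosome, while DIABLO relieves the block that IAPs place on caspases. TNF receptor 1 instead assembles TRADD, TRAF proteins and the ubiquitin ligases BIRC2 and BIRC3 into a complex that mainly sends survival and inflammatory signals.

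Pairs of arrays from the same group had Pearson's r of 0.9978 to 0.9983 over the 22215 probe sets, which are not independent replicates, and pairs from different groups had 0.9815 to 0.9826, and no array was identical to another. The median of all log2 values was 7.38 and the lower quartile 5.27, and probe sets below that quartile in both groups are treated as near background. Of 7 epithelial and lung adenocarcinoma markers 6 fell and KRT18 was not called. Their summed intensities ran from 26436 to 27140 in WZR6 and from 41638 to 42497 in parental cells. CDH1, which encodes E-cadherin, averaged 6.32 in WZR6 and 12.01 in parental cells, and MUC1, NKX2-1, KRT19, KRT7 and KRT8 were 5.22-fold, 4.40-fold, 3.27-fold, 1.71-fold and 1.16-fold lower. The 4 keratins were above the upper quartile of 9.61 in both groups. Of 8 measured leukocyte markers 2 fell, ITGB2 and CD14, and the pan-leukocyte PTPRC stood near background at 4.17 and 4.20. Summed intensities of the leukocyte list ran from 394 to 442 in WZR6 and from 651 to 698 in parental cells. Of 8 fibroblast markers PDGFRB rose, COL1A1 and COL1A2 fell and 5 were not called, with sums from 1230 to 1251 in WZR6 and from 2164 to 2342 in parental cells. Of 5 endothelial markers CDH5 rose 1.85-fold and 4 were not called, with sums from 288 to 311 in WZR6 and from 266 to 295 in parental cells. The part of these markers in the results below was not tested. Each array averages a whole culture, so a smaller share of expressing cells and less RNA per cell cannot be told apart.

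Among the 31 measured members, 10 rose in WZR6, 11 fell and 10 were not called (limma, Benjamini-Hochberg adjusted p under 0.05 over all probe sets). Each gene is represented by its own brightest probe set, and differences are WZR6 minus parental on the log2 scale, with n = 3 arrays per group throughout. Members were therefore called in 67.7% of cases, against 46.0% of all genes, with 23.3% of all genes higher and 22.7% lower. Among genes with a mean above the median of all values, 82.6% of 23 members and 65.0% of all genes were called, and at or below that median 25% of 8 members and 20% of all genes. The median difference of the members was -0.11, against 0.02 for all genes. The median size of the difference was 0.48 for members and 0.18 for all genes, and 14 members were called with a difference of at least 0.5, as were 17.4% of all genes. Of the 31 members 4 were called with a difference of at least 1 log2 unit, against 4.78% of all genes: TRAF1 rose, and CASP2, TNFSF10 and CFLAR fell. The groups did not overlap for 22 members, 10 higher and 12 lower, and for 56.3% of all genes.

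**Figure D1:**
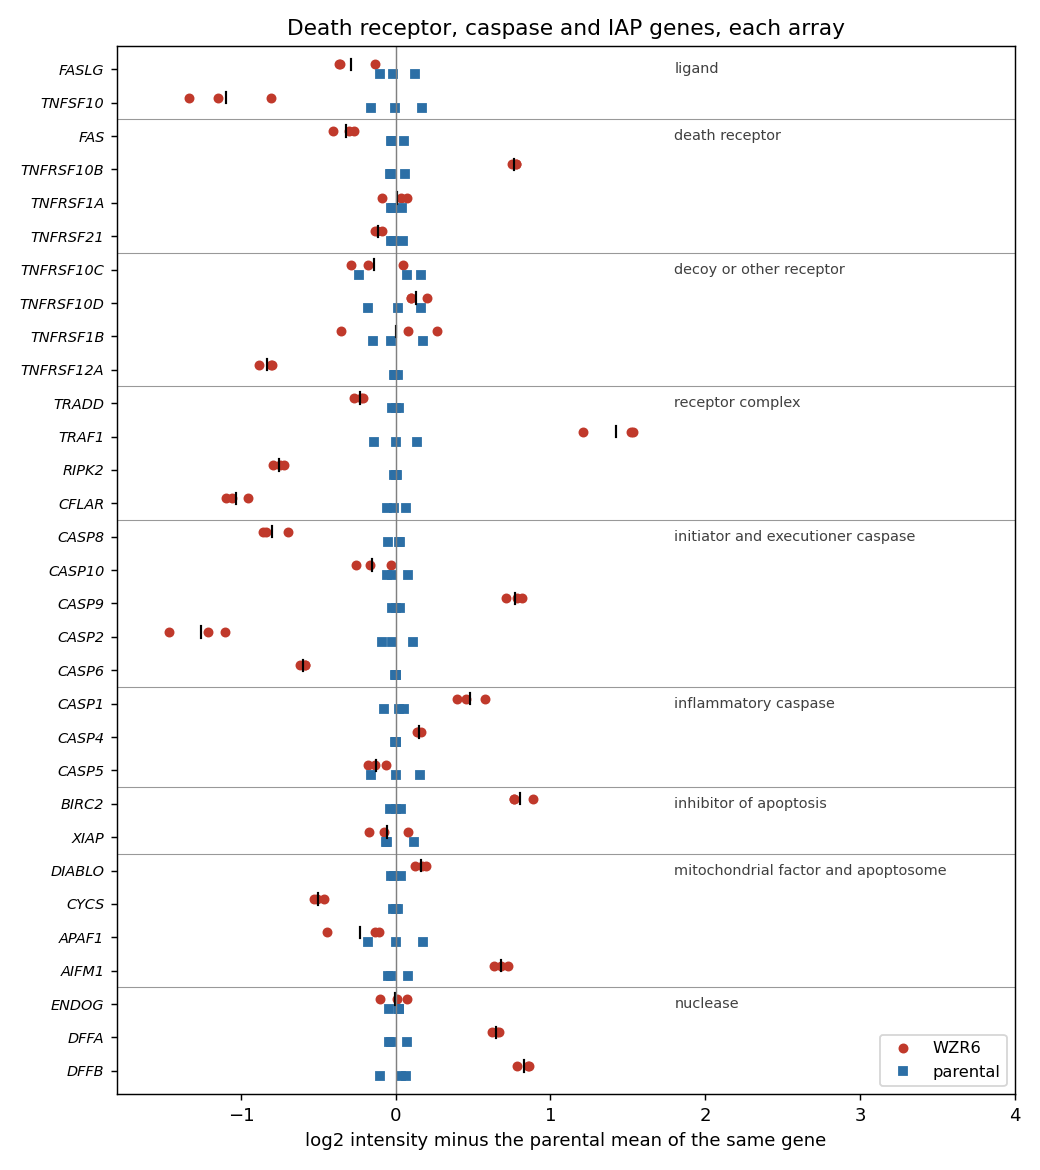
Log2 intensity of each of the 31 members on each array, minus the mean of the parental arrays for the same gene (x axis), with genes grouped by role from top to bottom. Red circles are WZR6 arrays, blue squares parental arrays, and the vertical tick is the WZR6 mean. TRAF1 lies farthest to the right at 1.42 and CASP2 farthest to the left at -1.26, and the arrays of 1 group lie close together for most genes.

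The promoters of the 4 members that differed by at least 1 log2 unit are shown, with that of CASP8, whose gene lies near CFLAR and whose protein CFLAR binds. Each runs from 250 bases before to 50 after a RefSeq transcription start in GRCh38.p14, read on the gene's strand, and where RefSeq lists several starts the first listed is given. Capitals mark matches on either strand to an NF-kB motif (GGGA and CC with any 4 bases between), an AP-1 motif (TGANTCA), an interferon-response motif (GAAA and GAAA with any 2 bases between), a GC box (GGGCGG) or a TATA box (TATAAA).
TRAF1, chr9:120929122-120929421, minus strand: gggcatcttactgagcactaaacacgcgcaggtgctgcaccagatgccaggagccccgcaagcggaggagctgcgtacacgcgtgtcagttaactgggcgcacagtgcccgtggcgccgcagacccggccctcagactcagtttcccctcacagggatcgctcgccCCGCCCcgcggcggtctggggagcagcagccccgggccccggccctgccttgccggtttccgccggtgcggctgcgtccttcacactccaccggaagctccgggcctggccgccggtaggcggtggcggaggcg
TNFSF10, chr3:172523381-172523680, minus strand: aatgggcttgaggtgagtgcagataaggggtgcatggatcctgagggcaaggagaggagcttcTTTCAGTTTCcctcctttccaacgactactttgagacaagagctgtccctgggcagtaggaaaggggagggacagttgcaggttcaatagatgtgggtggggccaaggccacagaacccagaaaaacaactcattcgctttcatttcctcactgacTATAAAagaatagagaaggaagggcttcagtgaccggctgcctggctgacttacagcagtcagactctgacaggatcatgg
CFLAR, chr2:201118466-201118765, plus strand: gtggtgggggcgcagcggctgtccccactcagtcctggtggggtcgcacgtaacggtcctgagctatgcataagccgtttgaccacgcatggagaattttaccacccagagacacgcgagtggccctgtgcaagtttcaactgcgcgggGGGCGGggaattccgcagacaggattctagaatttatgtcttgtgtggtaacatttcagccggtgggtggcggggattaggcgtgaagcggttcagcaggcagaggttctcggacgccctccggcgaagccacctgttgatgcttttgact
CASP8, chr2:201233213-201233512, plus strand: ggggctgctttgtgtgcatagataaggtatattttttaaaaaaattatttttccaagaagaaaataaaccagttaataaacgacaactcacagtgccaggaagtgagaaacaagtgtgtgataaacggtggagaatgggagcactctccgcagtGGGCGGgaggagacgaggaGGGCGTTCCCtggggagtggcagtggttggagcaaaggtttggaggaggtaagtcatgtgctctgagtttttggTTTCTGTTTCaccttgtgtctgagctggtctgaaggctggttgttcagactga
CASP2, chr7:143288101-143288400, plus strand: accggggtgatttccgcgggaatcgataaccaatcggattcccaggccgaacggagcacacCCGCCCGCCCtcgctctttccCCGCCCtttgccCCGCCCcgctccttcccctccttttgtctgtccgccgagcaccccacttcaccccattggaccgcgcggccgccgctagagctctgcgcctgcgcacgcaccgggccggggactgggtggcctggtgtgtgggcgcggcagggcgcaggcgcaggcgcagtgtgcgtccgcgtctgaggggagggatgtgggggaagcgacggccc

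The TNFSF10 window held an interferon-response match, present in 3.57% of 35116 RefSeq promoters, and a TATA box, present in 11.5%. It was also the poorest of these windows in CpG, with 3 CpG dinucleotides at 51% G+C. CASP2 and TRAF1 stood at the other end with 35 and 32 CpG at 71.3% G+C, and their marked letters are GC boxes, 4 of them in CASP2, where the leftmost pair overlaps, and 1 in TRAF1. GC boxes occurred in 45% of promoters. CFLAR held 1 GC box and no match to the other motifs as spelled here. The NF-kB letters searched require A after GGG, so a site with G there was not counted. The CFLAR window holds such a stretch, GGGGAATTCC, overlapping its GC box. CASP8 held a match to the NF-kB letters searched (25.6% of promoters) and an interferon-response match beside its GC box. Its difference from the nearby CFLAR in the NF-kB motif depends on the letters chosen. None of the 5 windows held an AP-1 match (7.71% of promoters). These matches describe the letters of the windows and say nothing of binding.

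Both measured ligands fell on their representative probe sets. TNFSF10, which encodes TRAIL, had log2 intensities of 6.53, 6.72 and 7.06 in WZR6, against 7.86, 7.71 and 8.03 in parental cells. All WZR6 arrays lay below all parental arrays, and the spread within WZR6 was the larger. The difference was -1.10 ± 0.14 (SE), or 2.14-fold lower (95% interval 1.69 to 2.71, limma adjusted p = 0.000863). Its other 2 probe sets fell by 1.01 and 0.71, so that all 3 were called. With values floored at the median of all values the difference shrank to -0.49 (adjusted p = 0.0185). FASLG, the FAS ligand, differed by -0.29 ± 0.09 (adjusted p = 0.0368), but at means of 4.15 in WZR6 and 4.43 in parental cells both groups were near background. Its second probe set was not called (-0.09, adjusted p = 0.402), with overlapping groups. The first call ended at -0.25 without WZR6 replicate 1 or without WZR6 replicate 3, at -0.30 without parental replicate 1 and at -0.22 without parental replicate 2, and the floor removed the difference altogether.

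The death receptors, whose intracellular death domains recruit adaptors, moved in different directions. TNFRSF10B, the TRAIL receptor also known as DR5, had 12.03, 12.03 and 12.00 in WZR6 and 11.22, 11.31 and 11.22 in parental cells. Its groups were far apart relative to replicate SDs of 0.02 in WZR6 and 0.05 in parental cells, giving a rise of 0.77 ± 0.05 (SE), 1.70-fold (1.57 to 1.85, limma adjusted p = 3.55e-05). The dimmer 2 of its probe sets rose by less, 0.30 and 0.31, and the mean of the 3 rose by 0.46. FAS fell by 0.32 ± 0.06 (adjusted p = 0.00326), and its 4 probe sets all fell, by between 0.26 and 0.48. TNFRSF1A, TNF receptor 1, differed by 0.01 ± 0.06, with an interval from -0.13 to 0.15. TNFRSF21, or DR6, differed by -0.11 ± 0.05 (adjusted p = 0.0993), and although its arrays did not overlap it was called only under 4 of 16 alternatives: cyclic loess, the floor, the filter on dim probe sets, and the intensity trend with robust variance.

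Of the 4 decoy and other receptors 1 was called. This was TNFRSF12A, the receptor of the cytokine TWEAK, with 11.29, 11.30 and 11.22 in WZR6, against 12.09, 12.10 and 12.12 in parental cells. It fell 1.78-fold (1.65 to 1.92, limma adjusted p = 2.13e-05), and the parental arrays were within 0.01 (SD) of each other. The TRAIL decoy receptors TNFRSF10C and TNFRSF10D were dim, at 5.23 and 5.05 in WZR6 and 5.37 and 4.91 in parental cells, and were not called. A probe set that names both TNFRSF10C and LOC254896 rose by 0.30 (adjusted p = 0.0488) and cannot be assigned to either. TNFRSF1B, TNF receptor 2, differed by 0.00 ± 0.16, with WZR6 arrays scattered from 6.09 to 6.71.

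All 4 measured genes of the receptor complexes changed, 3 lower and 1 higher. CFLAR, or c-FLIP, had 9.14, 9.18 and 9.29 in WZR6 and 10.31, 10.23 and 10.18 in parental cells. Every WZR6 array was thus lower by most of a log2 unit, and the difference of -1.04 ± 0.06 (SE) was a 2.05-fold decrease (1.86 to 2.26, limma adjusted p = 2.36e-05). Of its 11 probe sets 9 fell, by between 0.69 and 1.05. These 9 were 8 of type _x_at and 1 of type _s_at, classes whose probes can match further transcripts, and the 2 others lay near background at 4.16 and 3.66 in WZR6 with differences of -0.06 and -0.16, so the CFLAR call ended when the first classes were left out (-0.06, adjusted p = 0.778). RIPK2, the kinase that relays signals from the NOD receptors, had 10.17, 10.21 and 10.24 in WZR6, against 10.97, 10.94 and 10.96 in parental cells. That is a 1.68-fold decrease (1.56 to 1.81, adjusted p = 2.85e-05), and its second probe set fell by 0.58.

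TRAF1, an adaptor that pairs with TRAF2 and IAPs on TNF receptor 2 and related receptors, had 8.24, 8.57 and 8.56 in WZR6 and 7.18, 6.89 and 7.04 in parental cells. Its rise of 1.42 ± 0.11 (SE), 2.68-fold (2.23 to 3.21, limma adjusted p = 8.06e-05), was the largest difference of the members, and 2.59% of all genes differed by more. TRADD, the TNF receptor 1 adaptor, was the only member with probe sets called in opposite directions. Its representative had 9.39, 9.44 and 9.43 in WZR6, against 9.66, 9.63 and 9.68 in parental cells, a fall of 0.23 ± 0.05 (adjusted p = 0.00555), and a second bright probe set fell by 0.34. The third had 4.18, 4.28 and 4.07 in WZR6 and 4.04, 3.88 and 3.84 in parental cells, near background in both groups, and was called at 0.26 (adjusted p = 0.0342). Averaged over all 3 probe sets TRADD was no longer called (-0.10, adjusted p = 0.0943).

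Of the 5 initiator and executioner caspases 3 fell and 1 rose. CASP8, the initiator of the death receptor pathway, had 9.23, 9.25 and 9.39 in WZR6, against 10.11, 10.03 and 10.12 in parental cells. It fell 1.74-fold (1.57 to 1.92, limma adjusted p = 7.27e-05), and its second probe set fell by 0.59. CASP10, its closest relative, was not called on any of 4 probe sets, with differences from -0.15 to 0.26, so that within the adjoining CFLAR, CASP10 and CASP8 genes the outer members fell while the middle one gave no call. CASP9, the apoptosome caspase, moved the other way with 9.50, 9.53 and 9.42 in WZR6 and 8.71, 8.69 and 8.74 in parental cells, a rise of 1.71-fold (1.57 to 1.85, adjusted p = 3.67e-05), and its second probe set rose by 0.47.

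CASP2, an initiator activated on the PIDDosome platform, had 7.49, 7.13 and 7.38 in WZR6 and 8.57, 8.51 and 8.71 in parental cells. The decrease of 1.26 ± 0.10 (SE), 2.40-fold (2.03 to 2.83, limma adjusted p = 9.38e-05), was the largest among the members. Its 5 probe sets differed by -1.26 to -0.07, with 3 called, and their mean fell by 0.59. CASP6, an executioner that cleaves nuclear lamin A, had 9.50, 9.50 and 9.47 in WZR6, against 10.09, 10.08 and 10.09 in parental cells. With that small scatter a 1.51-fold decrease (1.41 to 1.62) had an adjusted p of 5.92e-05, and both of its probe sets fell.

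Inflammatory caspases, which process interleukin 1 family cytokines and cut gasdermins, changed less. CASP1 rose 1.39-fold (1.25 to 1.55, limma adjusted p = 0.00112), with 10.30, 10.36 and 10.48 in WZR6 and 9.96, 9.93 and 9.83 in parental cells. Of its 5 probe sets 4 rose, by 0.45 to 0.57, and these are of types _x_at and _s_at, which may also detect neighbouring CARD-only genes of near-identical sequence. The fifth differed by 0.24 (adjusted p = 0.246). CASP4 rose by 0.15 ± 0.04 (adjusted p = 0.0303), a call that was lost on leaving out any 1 of the 6 arrays, with differences of 0.14 to 0.15 and adjusted p-values of 0.0648 to 0.0815, and also under cyclic loess (0.12). Its second probe set differed by 0.28, and CASP4 was not called either when that one stood for it without the _x_at and _s_at types (adjusted p = 0.0614). CASP5 differed by -0.13 ± 0.09 and was not called.

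**Figure D2:**
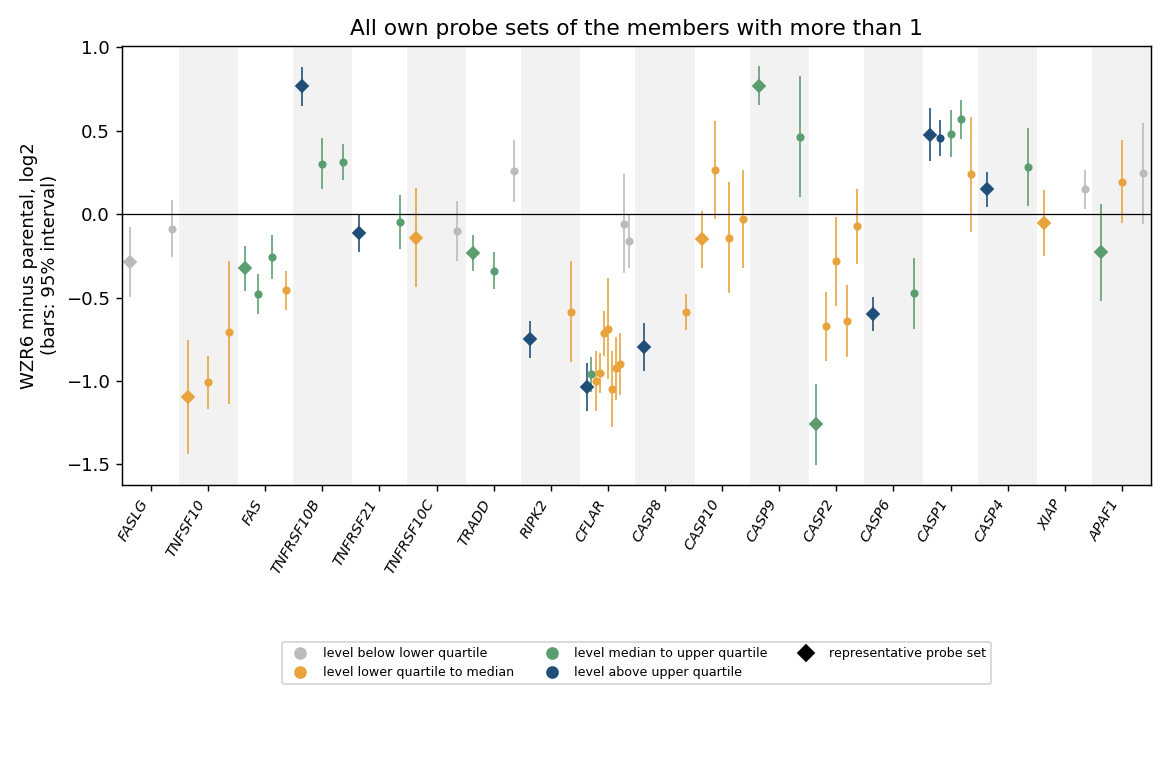
WZR6 minus parental difference on the log2 scale (y axis) of every own probe set of the 18 members with more than 1, with 95% intervals of the limma fit. Diamonds mark the probe set that represents the gene, colours give the mean level relative to the quartiles of all values, and shaded bands separate the genes. The 9 brighter CFLAR probe sets lie between -1.05 and -0.69, the 2 grey ones near 0, and for TRADD the grey probe set lies above 0 while both green ones lie below.

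Across these 18 genes the probe sets gave 7 genes with every probe set called in 1 direction, 6 with called and uncalled ones but none opposed, 4 with none called, and TRADD with calls both ways. Counted over the 72 own probe sets, 18 rose, 30 fell and 24 were not called, so that 66.7% were called, against 41.1% of all 22215 probe sets (21.6% higher and 19.5% lower). The 11 probe sets of CFLAR and the 5 each of CASP1 and CASP2 weigh on those counts.

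The IAPs and mitochondrial factors split as well. BIRC2, the ubiquitin ligase cIAP1, had 12.71, 12.71 and 12.84 in WZR6, against 11.91, 11.98 and 11.95 in parental cells. It rose 1.75-fold (1.59 to 1.91, limma adjusted p = 4.98e-05) on its single probe set. XIAP, the direct caspase inhibitor, was dim at 6.17 in WZR6 and 6.22 in parental cells and differed by -0.05 ± 0.08 (interval -0.25 to 0.14). Its second probe set, dimmer still at 5.29 in WZR6 and 5.14 in parental cells, was called at 0.15 (adjusted p = 0.0476).

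AIFM1, a mitochondrial flavoprotein that can move to the nucleus in cell death, had 11.27, 11.18 and 11.23 in WZR6 and 10.49, 10.62 and 10.52 in parental cells, a rise of 1.60-fold (1.46 to 1.76, limma adjusted p = 0.000102). CYCS, cytochrome c, had 13.13, 13.15 and 13.20 in WZR6, against 13.66, 13.64 and 13.68 in parental cells, and fell by 0.50 ± 0.05 (SE, adjusted p = 0.000163). Processed copies of CYCS are spread over the genome, and its probe set cannot be said to separate them. DIABLO rose by 0.17 ± 0.05 (adjusted p = 0.0293), and the call ended without WZR6 replicate 2 (0.16), WZR6 replicate 3 (0.15), parental replicate 2 (0.16) or parental replicate 3 (0.15), and under cyclic loess (0.14). APAF1, the scaffold of the apoptosome, differed by -0.23 ± 0.12 on its representative and by 0.20 and 0.24 on 2 dimmer probe sets, with no call.

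Among the nucleases, both subunits of the DNA fragmentation factor rose. DFFB, the nuclease itself, had 8.62, 8.61 and 8.54 in WZR6, against 7.66, 7.83 and 7.80 in parental cells, a rise of 1.78-fold (1.61 to 1.97, limma adjusted p = 6.35e-05). DFFA, its chaperone and inhibitor, had 10.41, 10.40 and 10.37 in WZR6, against 9.72, 9.82 and 9.70 in parental cells, a rise of 1.57-fold (1.44 to 1.71, adjusted p = 9.24e-05). The mitochondrial nuclease ENDOG differed by -0.01 ± 0.06 (interval -0.15 to 0.13).

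To place each member in its surroundings, it was set beside the median difference of 20 neighbours, the 10 nearest measured genes on each side that are not members. That median ran from -0.53 to 0.40 and was at least 0.3 in size for 3 members. CYCS, at -0.50, differed from its neighbours' median of -0.53 by 0.03. DFFA rose by 0.65 where its neighbours had a median of 0.40, with 15 of the 20 called higher, and TNFRSF1B was at 0.00 in surroundings with a median of 0.34. DFFB and CASP9 lay in stretches with medians of 0.26 and 0.20, and exceeded them by 0.57 each. With 5 neighbours on each side those medians were 0.35 and 0.32. DFFA, TNFRSF1B, DFFB and CASP9 all lie on chromosome 1.

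CFLAR, CASP10 and CASP8 share 1 set of neighbours with a median of -0.17, below which CFLAR lay by 0.86 and CASP8 by 0.63. TRAF1 stood 1.26 above its neighbours, BIRC2 0.76 above and TNFRSF10B 0.71 above, and TNFSF10 lay 1.30 below neighbours whose own median was 0.20. CASP2 was 1.13 below its neighbours. Of the 21 called members 20 kept their sign relative to the neighbours' median, CYCS being the exception, and 13 were at least 0.5 away from it. A sign is kept wherever that median is smaller in size than the member's own difference, so the first count says little about the surroundings. For 17 of the 21 the neighbours' median had the same sign as the member's own difference, and CYCS and CASP4 were under 0.1 from it. Members with the same neighbours were counted separately, and some of these medians were small, such as -0.01 for TNFRSF12A. The corresponding shares over all called genes were not computed, so whether these counts are unusual cannot be said. Neighbours were ordered by the RefSeq GRCh38.p14 gene table, and DNA copy number was not measured.

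**Figure D3:**
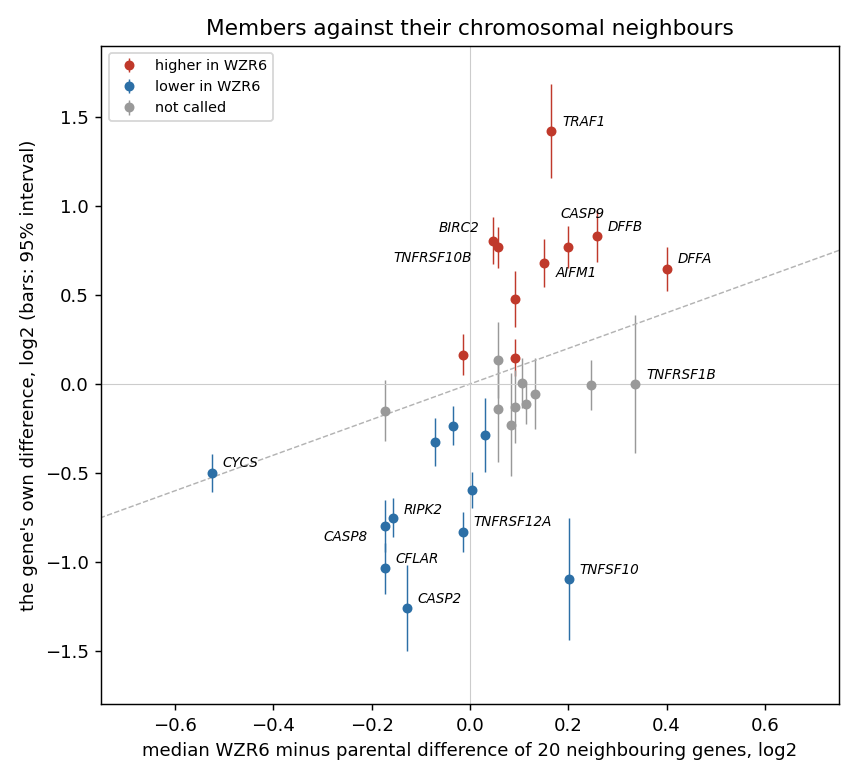
Each member's own WZR6 minus parental difference with its 95% interval (y axis, log2) against the median difference of 20 neighbouring measured genes (x axis, log2). Red, blue and grey mark members called higher, lower or not called, and the dashed line marks equal values. CYCS lies on the line at -0.53, whereas TRAF1, TNFSF10, CASP2 and CFLAR lie far from it.

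Further lists place the members in their pathways, and gave 24 genes higher, 16 lower and 40 not called among 80 measured genes. Among 16 apoptosis adaptors and regulators 6 rose, 2 fell and 8 were not called, with a median difference of 0.06. FADD, the adaptor that links death receptors to CASP8, had 10.58, 10.57 and 10.55 in WZR6 and 11.24, 11.30 and 11.25 in parental cells, and fell 1.62-fold (limma adjusted p = 3.72e-05). The FAS-associated proteins DAXX and FAF1 rose 1.96-fold and 1.53-fold, DAXX among neighbours with a median of 0.42, and the IAP family member BIRC5 (survivin) rose 1.29-fold.

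Of 18 genes of the inflammatory caspase pathway 5 rose, 6 fell and 7 were not called, with a median of -0.08. The pore-forming gasdermin GSDME had 5.92, 6.02 and 5.99 in WZR6, against 8.05, 8.09 and 8.15 in parental cells, a 4.34-fold decrease among neighbours with a median of -0.57 (limma adjusted p = 7.73e-07). PYCARD, the inflammasome adaptor ASC that recruits caspase 1, fell 3.82-fold (adjusted p = 6.06e-06), with 7.14, 6.95 and 6.83 in WZR6 and 8.92, 8.93 and 8.87 in parental cells, and the DNA sensor AIM2 fell 1.97-fold. CARD10, a scaffold that links receptors to NF-kB, rose 2.05-fold. The CASP1 call was thus higher and that of its adaptor lower. The CASP1 call rests on probe sets of types _x_at and _s_at, which may also detect CARD-only genes. Its probe set outside those types was not called (0.24, limma adjusted p = 0.246).

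TNF superfamily ligands and receptors outside the member list rose for 7 of 26 and fell for 3, and 16 were not called, with a median of 0.09. TNFRSF9, the costimulatory receptor 4-1BB, stood at 10.47 on every WZR6 array, against 8.33, 8.30 and 8.51 in parental cells, 4.25-fold higher (limma adjusted p = 1.57e-06). TNFRSF11B, osteoprotegerin, a soluble receptor that can bind TRAIL, had 8.65, 8.50 and 8.26 in WZR6, against 6.29, 6.48 and 6.54 in parental cells, and rose 4.11-fold (adjusted p = 1.81e-05). The cytokines TNF and LTB rose 1.94-fold and 1.83-fold, and both lie among neighbours with medians of 0.46 and 0.45.

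Signalling components of the TNF receptor complex rose for 6 of 20 genes and fell for 5, and 9 were not called, with a median of 0.11. The ubiquitin editor TNFAIP3 (A20) rose 1.46-fold, and the kinases CHUK (IKK alpha) and MAP3K5 (ASK1) fell 1.49-fold and 1.44-fold, with limma adjusted p-values between 0.000405 and 0.00167. IKBKG fell 1.38-fold but has a near-identical pseudogene and is uncertain. In shares of measured genes called, these 4 lists gave 50, 61.1, 38.5 and 55%, against the 46.0% of all genes.

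**Figure D4:**
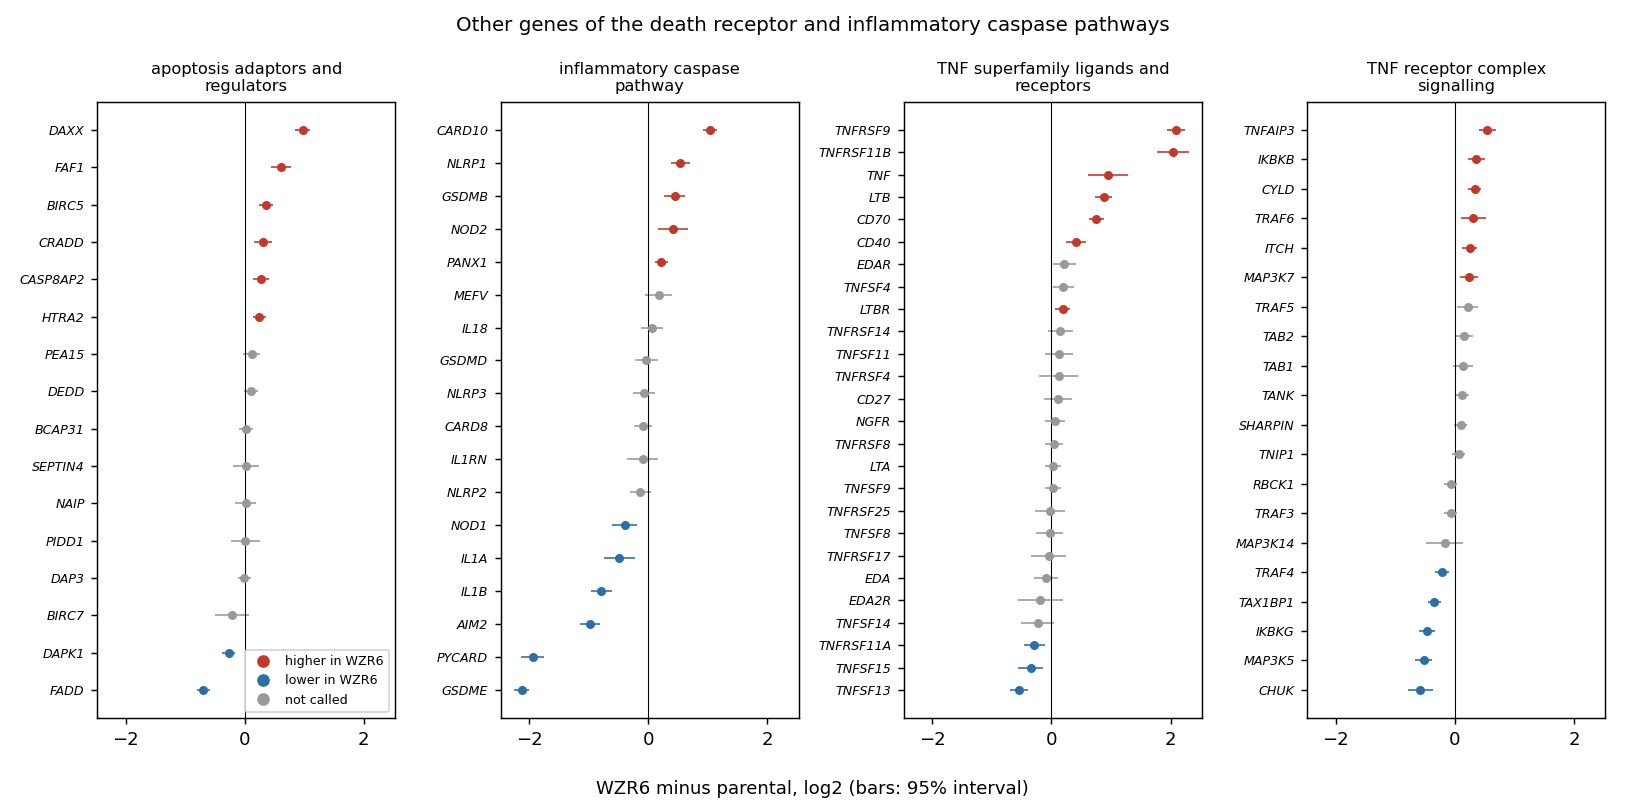
WZR6 minus parental difference on the log2 scale with 95% intervals (x axis) for the measured genes of the 4 further lists, 1 panel per list, ordered by difference. Red, blue and grey mark genes called higher, lower or not called. TNFRSF9 and TNFRSF11B lie near 2 on the right, and GSDME and PYCARD near -2 on the left.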

How the data were processed

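RNA from 3 WZR6 and 3 parental samples was hybridised to Affymetrix arrays, 1 array per sample. The deposited values are probe set intensities on a linear scale, summarised with RMA per the submitters' processing notes, with the version not given in the sources used here. They carry no detection calls. RMA compresses differences of dim probe sets. Values were taken to log2 without a pseudocount or further normalization. After 62 control probe sets were left out, 22215 were fitted with limma 3.58.1 (R 4.3.3, lmFit and eBayes), and p-values were adjusted by Benjamini-Hochberg over all of them, with calls at 0.05. The fit was tested on simulated data. The number of arrays limits the precision. Probe sets were named from the platform annotation (19064 with 1 gene, 1043 with several, 2108 with none), of which 19052 matched a RefSeq symbol, and a gene takes its brightest own probe set by the mean over all 6 arrays. Members called with a difference of at least 0.5, and members with opposed probe sets, are given by array, with CYCS, CASP1, FADD and a few pathway genes chosen after their values were seen. In each further list up to 4 called genes with the largest difference are named. The members and lists were chosen with earlier results of these data known. Deviations of same-numbered samples of the 2 groups had correlations of -0.01, 0.12 and 0.23, and those of unlike-numbered samples had -0.24 to 0.13. These values do not settle whether the numbers pair the samples. The main fit took no pairing, and a replicate block was run as an alternative. The alternatives were other normalizations, a floor and a filter on dim values, other probe set choices, an intensity trend, a replicate block, other numbers of neighbours and leaving out each array. Python 3.11.15 read the promoters, and matplotlib 3.10.9 made the plots.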

Additional observations from a re-analysis of the deposited data

How the results depend on the processing

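No called member changed sign under the alternatives run, whereas TNFRSF1A, TNFRSF1B, XIAP, APAF1 and ENDOG, which were not called, had values on both sides of 0. Leaving out each array in turn gave 8 to 9 members higher and 10 to 11 lower, 13 to 16 of their probe sets higher and 28 to 31 lower, and 21 to 25 genes of the further lists higher and 15 to 17 lower. Without probe sets of types _x_at and _s_at, which leaves 21 members measured, 4 rose and 6 fell, with 5 and 7 of 25 probe sets and 11 and 9 of 52 genes of the further lists. There CASP1 (0.24, adjusted p = 0.255), CASP4 (0.28, adjusted p = 0.0614) and CFLAR (-0.06, adjusted p = 0.778) were no longer called. FAS, TNFRSF12A, CASP8, CASP9, CASP6, DIABLO, AIFM1 and DFFB have only probe sets of those types, so their calls could not be checked there. Flooring values at the median gave 18 lower probe sets in place of 30, and keeping only probe sets above that level gave 15 lower of 36. With 5 neighbours on each side the neighbours' median was at least 0.3 in size for 5 members in place of 3, and with 20 on each side for 2. With the replicate number as a block, 8 members were higher and 12 lower, CASP4 and DIABLO lost their calls (adjusted p = 0.0576 and 0.0624) and APAF1 gained one (-0.23, adjusted p = 0.0291). Under that block 15 probe sets were higher and 31 lower, and the further lists stayed at 24 and 16. The share of lower genes among all calls was 54.3% after cyclic loess, 42.6% after median centring and 49.3% as reported. FASLG was also not called after median centring (-0.24, adjusted p = 0.0520). The cause of these shifts was not tested beyond what each alternative changes. Dim probe sets limit what can be read for FASLG, TNFRSF10D and the second probe set of XIAP.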
